A study of Homo sapiens with 8 samples.

Results

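The aminoacyl-tRNA synthetases described here are 35 nuclear genes, 19 for cytosolic enzymes and 16 for mitochondrial enzymes, out of 24462 gene symbols counted by RNA sequencing. They were chosen by symbol from the deposited count table, and every mitochondrial member carries a symbol that ends in 2. All 35 were in the table and all 35 passed the filter on low counts. The cells were 4 established human cancer lines, each grown with recombinant human IFN-gamma at 20 ng/ml for 72 hours or left untreated for that time in the same serum-containing RPMI medium. A375 comes from skin (melanoma), A498 from kidney, and H1703 and the line labelled 549 from lung cancer. Each line gave 1 IFN-gamma library and 1 untreated library, 8 libraries in all, and the labels name no replicate culture. The 4 lines therefore stand as replicates. The treatment p-values set the mean change over the lines against the spread of the response between lines. The estimate of that spread for a gene also borrows from all tested genes. The ratio of a single line has no replicate check.

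Aminoacyl-tRNA synthetases join each amino acid to its tRNA, the charging step that supplies the ribosome. Mitochondria translate with their own enzymes, most of them encoded by separate nuclear genes, while the glycyl and lysyl genes (GARS and KARS) make both the cytosolic and the mitochondrial form and are counted here as cytosolic. Uncharged tRNA activates the kinase GCN2 (EIF2AK4), which phosphorylates eIF2 and favours translation of ATF4, a transcription factor that binds C/EBP-ATF response elements in genes for amino acid synthesis, amino acid import and many cytosolic synthetases. IFN-gamma signals through JAK kinases to gamma-activated sites in its target genes, and cytosolic tryptophanyl-tRNA synthetase (WARS) is a well known IFN-gamma-induced gene.

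Promoter windows from RefSeq (GRCh38.p14) were searched for the letters of 3 response elements. Each window held 250 bases before and 50 bases from an annotated start of the gene, and some genes had 2 windows. The core of the C/EBP-ATF element, TGATGNAA, searched on both strands, was in 7 of the 15 cytosolic members that have a window (AARS, CARS, GARS, IARS, MARS, NARS and TARS) and in 1 of the 14 mitochondrial members (YARS2), against 4.46% of all 27305 genes with a window. With the start base at 0, the match began at -4 in MARS, -33 in GARS and -187 in AARS. CARS, GARS and TARS each had 2 windows, of which only 1 held the match. In GARS that was window 2, and its distance is counted from the start of that window. All 7 cytosolic genes were among the 9 with a window of the 11 cytosolic members listed from the literature as ATF4-linked, and 0 of the 6 other cytosolic members with a window held it. Some ATF4 targets were first recognised by this element, so that overlap is not independent of the list. The gamma-activated site TTCNNNGAA, searched on both strands, was in CARS and TARS and in PARS2 and WARS2, against 9.38% of all genes. The interferon-stimulated response element core (GAAA, any 2 bases, GAAA), searched on both strands, was in 0 of the 15 cytosolic members and in EARS2 among the mitochondrial members, against 4.38% of all genes. No 2 of these motifs overlap in CARS or TARS, where the C/EBP-ATF and gamma-activated letters both occur. A match describes the letters and is not a mapped binding site.

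Total counts were 6559933 to 9291154 per library. IRF1 and GBP1, direct IFN-gamma targets, were higher in every IFN-gamma library, with log2 changes of 4.57 ± 0.29 (SE, edgeR adjusted p 0.00018) and 5.96 ± 0.37 (adjusted p 0.000168). Melanocytic markers summed to 646.2 and 1014 CPM (counts scaled to library size by TMM) in IFN-gamma and untreated A375 and to at most 57.4 CPM in any other library. SOX10 was the highest of them in A375, while PMEL, MLANA and TYR reached at most 3.07 CPM there. Renal markers summed to 352.1 and 280.9 CPM in IFN-gamma and untreated A498 and to at most 63.4 CPM elsewhere. PAX8 made up 278.3 and 228.9 CPM of the A498 sums. Other renal markers went the other way: CA9 had 29.2 and 46.4 CPM in 549 against 3.32 and 3.24 CPM in A498. NDUFA4L2 was highest in A375, with 34.4 and 15.3 CPM against 19.2 and 10.9 CPM in A498. The 5 lung epithelial markers (NKX2-1, SFTPA1, SFTPB, SFTPC, NAPSA) summed to at most 1.67 CPM in every library, the lung lines included, with SFTPA1 at 0 throughout, and leukocyte markers to at most 5.38 CPM. These are bulk samples, in which fewer cells of a type and less RNA per cell cannot be told apart.

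Across the 4 lines, most cytosolic synthetases had higher fitted levels with IFN-gamma and most mitochondrial synthetases lower ones, and 1 gene passed the test. The fitted log2 change was above 0 for 16 of 19 cytosolic members (84.2%) and for 4 of 16 mitochondrial members (25.0%), against 48.7% of all 13457 genes tested. Its median was 0.34 for cytosolic members, -0.15 for mitochondrial members and -0.02 for all genes. With adjustment over all genes, 1 of the 35 members, CARS, passed the edgeR quasi-likelihood test, where 1.59% of all genes were called higher and 0.327% lower. At an unadjusted p under 0.05, 8 cytosolic members were higher and 1 was lower, and 0 mitochondrial members were higher and 2 lower, against 10.8% of all genes higher and 10.2% lower. These counts and medians describe the 2 lists and were not tested as lists.

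CARS encodes the cysteinyl enzyme. It had 228.7, 376.4, 430.5 and 106.9 CPM in IFN-gamma-treated 549, A375, A498 and H1703, against 88.7, 111.3, 143 and 82.5 CPM in the untreated libraries of the same lines. It was higher with IFN-gamma in 4 of 4 lines, as were 14.9% of all genes. The arms overlapped because treated H1703 lay below 2 untreated libraries. The log2 ratio was 0.37 in H1703 and 1.36, 1.76 and 1.59 in 549, A375 and A498, and the fitted log2 change was 1.28 ± 0.24 (SE), an edgeR adjusted p of 0.0386. The call was lost without 549 (adjusted p 0.167), without A375 (0.0969), without A498 (0.192) and with no cell line term (1), and it held without H1703 (0.0131). An antisense gene, CARS1-AS1, overlaps CARS in the RefSeq gene table, and whether counting used strand is not given in the sources used here.

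GARS, AARS, YARS, SARS and MARS had fitted log2 changes of 0.87 to 1.16 without passing the test. GARS, the glycyl enzyme of cytosol and mitochondria, had 406.5, 808.4, 617.9 and 293.5 CPM in IFN-gamma-treated 549, A375, A498 and H1703, against 121.8, 224.4, 270 and 339.5 CPM in the untreated libraries. AARS, the alanyl enzyme, had 485.6, 392, 325.2 and 97.3 CPM in the IFN-gamma libraries in the same order of lines, against 180.2, 170, 137 and 106.6 CPM untreated. In both genes the treated library exceeded the untreated one in 549, A375 and A498 and not in H1703, and the arms overlapped. YARS, the tyrosyl enzyme, had 184.3, 321.8, 174.3 and 116.5 CPM with IFN-gamma, against 60.6, 124.3, 86.7 and 115.5 CPM untreated. YARS overlaps the protein-coding gene S100PBP in the gene table, so its counts are uncertain in the same way as those of CARS. SARS, the seryl enzyme, which also charges selenocysteine tRNA with serine, had 183.2, 498.5, 355.7 and 134.8 CPM with IFN-gamma, against 78.4, 175.3, 176.5 and 166.7 CPM untreated. H1703 again stood apart, with nearly equal YARS in its 2 libraries and a lower SARS level in the treated one.

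MARS, the methionyl enzyme of the multisynthetase complex, had 278.9, 387.1, 307.3 and 218.4 CPM in IFN-gamma-treated 549, A375, A498 and H1703, against 103.7, 166.4, 130.2 and 210.8 CPM in the untreated libraries. Every treated MARS value lay above every untreated one, although H1703 differed by only 0.05 on the log2 scale. MARS overlaps DDIT3 and ARHGAP9 in the gene table, and DDIT3, a stress transcription factor, had a log2 change of 1.25, so the MARS counts are uncertain to that extent. EPRS, the glutamyl-prolyl enzyme of the same complex, had 413.1, 639.4, 487.3 and 372.6 CPM with IFN-gamma, against 197.6, 413.4, 292.8 and 415.9 CPM untreated, higher in 549, A375 and A498 with overlapping arms. The edgeR log2 changes (± SE, with adjusted p) were 1.16 ± 0.33 for GARS (0.107), 1.00 ± 0.26 for YARS (0.0926), 0.99 ± 0.25 for MARS (0.0836), 0.95 ± 0.27 for AARS (0.104), 0.87 ± 0.29 for SARS (0.143) and 0.57 ± 0.22 for EPRS (0.187). Without H1703, edgeR called AARS, CARS, GARS, MARS, SARS and YARS higher and 0 members lower, where 2.34% of all genes were called higher and 1.04% lower. DESeq2 on all 8 libraries called AARS, CARS, GARS, MARS and YARS higher and QARS lower, where it called 4.88% of all genes higher and 3.13% lower.

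**Figure D1:**
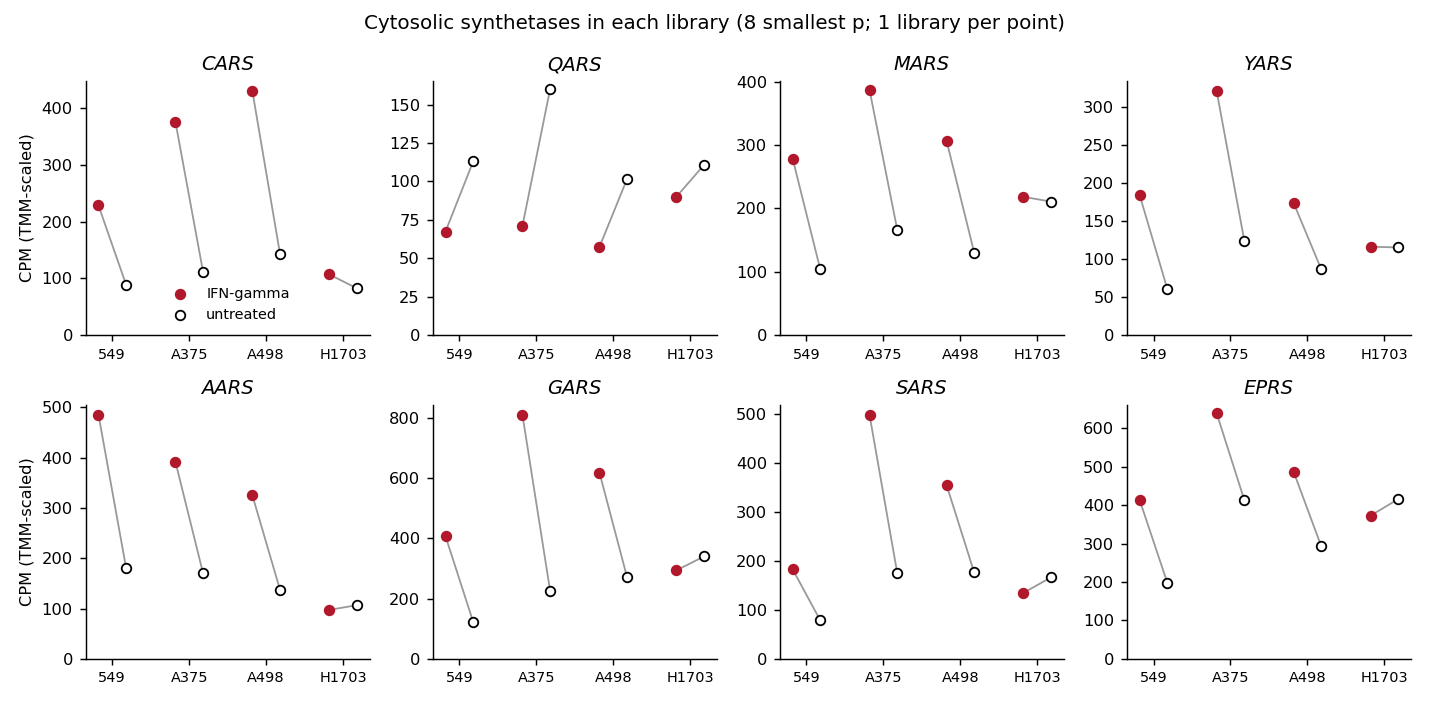
TMM-scaled CPM (linear axis from 0) of the 8 cytosolic synthetases with the smallest p, by cell line, with IFN-gamma (filled, left) joined to untreated (open, right) and 1 library per point. In H1703 the levels of AARS, GARS, SARS, EPRS and QARS were lower with IFN-gamma. In 549, A375 and A498 every gene but QARS was higher.

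QARS, the glutaminyl enzyme of the complex, was the only named cytosolic member with lower values in all 4 lines, as were 15.2% of all genes. It had 67.4, 71.2, 57.3 and 90 CPM in IFN-gamma-treated 549, A375, A498 and H1703, against 113.1, 160.2, 101.7 and 110.8 CPM in the untreated libraries. All treated values lay below all untreated ones. The log2 change was -0.76 ± 0.19 (SE, edgeR adjusted p 0.0828), and DESeq2 called QARS lower.

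Among all 35 members, the arms did not overlap for MARS, KARS, RARS and QARS, where 1.78% of all genes had every treated value above every untreated one and 1.1% the opposite. KARS, the lysyl enzyme of cytosol and mitochondria, had 276.5 to 396.2 CPM with IFN-gamma, against 241.1 to 267.8 CPM untreated, and RARS, the arginyl enzyme, had 275.8 to 346.8 against 209.2 to 265 CPM. Their log2 changes were 0.43 and 0.34, and edgeR gave adjusted p-values of 0.189 and 0.255. In H1703 these were the members of the complex with ratios above that of MARS, at 0.56 for KARS and 0.39 for RARS. KARS did not keep 1 direction in all 4 lines under every scaling, because its A375 ratio was small (0.12).

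The other cytosolic members had log2 changes from -0.38 to 0.43, none called. TARS, the threonyl enzyme (0.43), had ratios of 0.61 to 0.70 in 549, A375 and A498 and -0.21 in H1703. NARS (asparaginyl), FARSB (phenylalanyl, beta subunit), LARS (leucyl) and HARS (histidyl) had changes of 0.32, 0.28, 0.25 and 0.25, and IARS (isoleucyl) and DARS (aspartyl) of 0.16 each. VARS, the valyl enzyme (-0.38), and FARSA, the alpha subunit of the phenylalanyl enzyme (-0.24), were below 0. The phenylalanyl subunits, which work as 1 enzyme, thus differed in sign, with ratios in 549 of -0.42 for FARSA and 0.89 for FARSB. Neither change passed the test and the difference between the subunits was not tested.

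**Figure D2:**
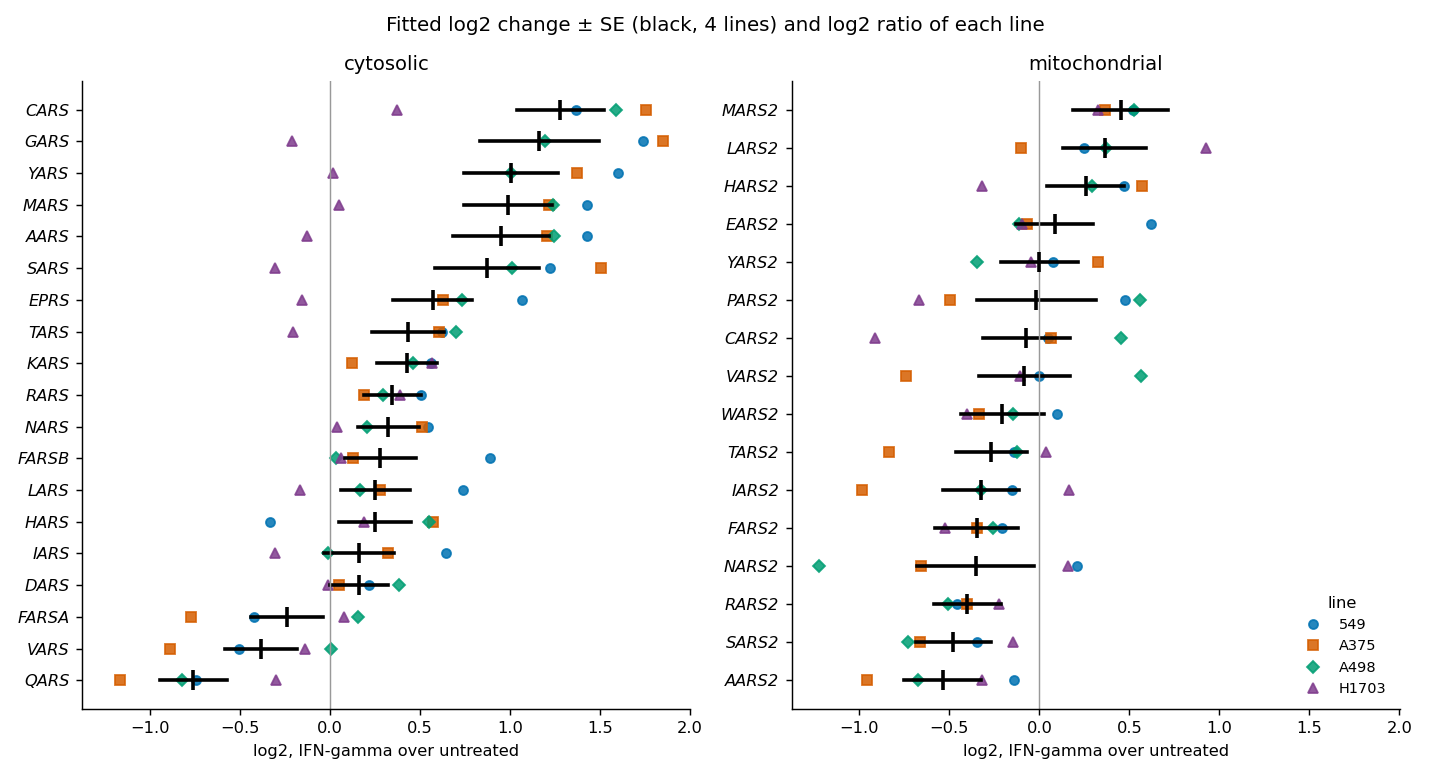
Fitted log2 change with IFN-gamma ± SE over 4 lines (black) and the log2 ratio of each line (coloured symbols) for 19 cytosolic (left) and 16 mitochondrial synthetases (right), ordered by the fitted change. CARS is at the top at 1.28 and QARS at the bottom at -0.76, while mitochondrial members lie between -0.54 and 0.45.

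Of the mitochondrial members, AARS2, SARS2, RARS2 and MARS2 had the smallest p-values among those that fall under the naming rule. AARS2, the alanyl enzyme, had 11.5, 21.2, 11.5 and 20 CPM in IFN-gamma-treated 549, A375, A498 and H1703, against 12.8, 41.4, 18.6 and 25 CPM in the untreated libraries. SARS2, the seryl enzyme, had 22.4, 13.5, 9.95 and 11.7 CPM with IFN-gamma, against 28.6, 21.5, 16.7 and 13 CPM untreated. Both were lower in 4 of 4 lines with overlapping arms, opposite to AARS and SARS in 549, A375 and A498. RARS2, the arginyl enzyme, had 14.7, 16.5, 11.4 and 34.9 CPM with IFN-gamma, against 20.3, 21.8, 16.4 and 40.8 CPM untreated. MARS2, the methionyl enzyme, had 4.26, 7.85, 11.1 and 4.91 CPM with IFN-gamma, against 2.9, 6.04, 7.67 and 3.86 CPM untreated. RARS2 was thus lower and MARS2 higher in 4 of 4 lines, and H1703 held the most RARS2 in either arm. In 4 of 4 lines, 4 of the 16 mitochondrial members were lower and 1 was higher, against 15.2% and 14.9% of all genes. The edgeR log2 changes were -0.54 ± 0.22 for AARS2 (adjusted p 0.199), -0.48 ± 0.21 for SARS2 (0.233), -0.40 ± 0.19 for RARS2 (0.256) and 0.45 ± 0.26 for MARS2 (0.357).

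MARS2 rests on 20 to 84 counts per library, and its 95% counting interval covered 0 in 3 of 4 lines. The remaining 12 mitochondrial members had log2 changes from -0.35 (FARS2 and NARS2) to 0.36 (LARS2). FARS2, the phenylalanyl enzyme, was lower in all 4 lines. FARS2, CARS2 and EARS2 overlap the protein-coding genes LYRM4, ING1 and GGA2 in the gene table, and their counts are uncertain likewise. The widest spread was in NARS2, the asparaginyl enzyme, with ratios of 0.21 in 549, -0.66 in A375 and -1.22 in A498, with 0.16 in H1703, and the A498 ratio rests on 16 treated and 36 untreated counts. CARS2, the cysteinyl enzyme, had -0.92 in H1703 and 0.05 to 0.46 in the other lines. LARS2, the leucyl enzyme, had 0.93 in H1703 and -0.11 to 0.37 in the others. Counting intervals, which cover counting error only, excluded 0 for 5 to 8 of 16 mitochondrial members per line, against 11 to 19 of 19 cytosolic members. Such intervals narrow as counts rise, and most mitochondrial members had lower counts than most cytosolic members. These numbers therefore do not compare how many genes responded in each list, and no share over all genes is given.

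Line by line, the cytosolic median log2 ratio was 0.64 in 549, 0.51 in A375 and 0.46 in A498, with -0.01 in H1703. The mitochondrial medians were 0.06, -0.38, -0.13 and -0.13 in the same order, and those of all genes lay between -0.01 and 0.00. The cytosolic median exceeded the mitochondrial one by 0.58 in 549, 0.89 in A375 and 0.59 in A498, with 0.12 in H1703 (mean 0.54 ± 0.32, SD of 4 lines). The contrast kept its sign in all 4 lines, and in A375 and A498 the cytosolic median lay above 0 and the mitochondrial one below it. A difference within a library does not depend on how the libraries were scaled.

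**Figure D3:**
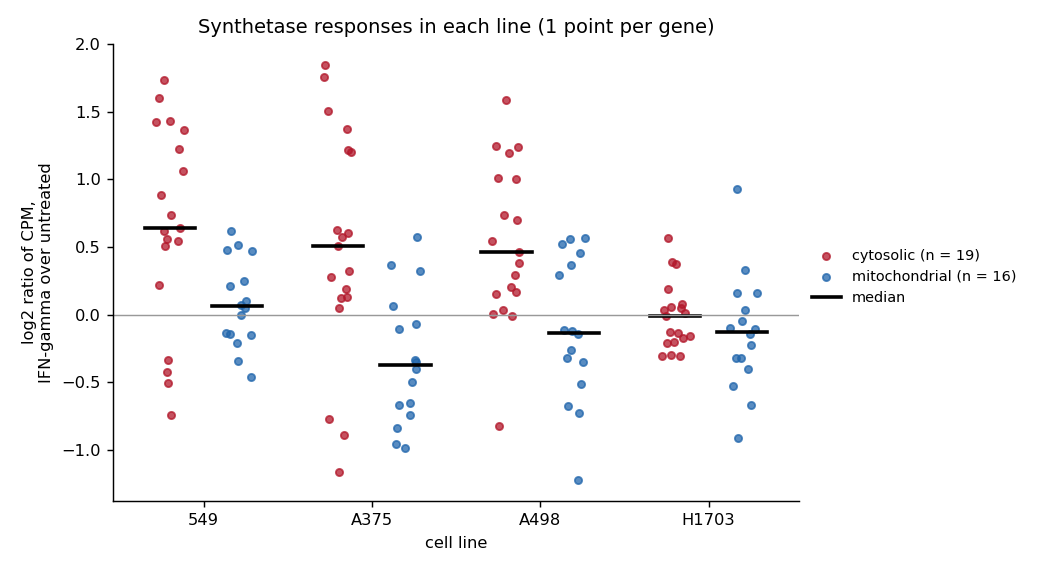
Log2 ratio of CPM, IFN-gamma over untreated, of each cytosolic (red, left) and mitochondrial (blue, right) synthetase in each line, with black bars at the medians. The cytosolic median lies 0.58 to 0.89 above the mitochondrial one in 549, A375 and A498 and 0.12 above it in H1703.

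A ratio of at least 2-fold up was reached by 7 cytosolic members in 549 (6.81% of all genes), 6 in A375 (10.5%), 6 in A498 (10.5%) and 0 in H1703 (3.3%). No mitochondrial member reached it in any of the 4 lines. A ratio of 2-fold down was reached by QARS in A375, where 10.1% of all genes did so, and by NARS2 in A498, where 6.78% did. It was reached by 0 members in 549 and in H1703, where 9.16% and 1.53% of all genes did. Summed over the 19 cytosolic genes, levels were 4671 CPM in IFN-gamma-treated and 2657 CPM in untreated 549, 5876 and 3561 CPM in A375 and 5312 and 3280 CPM in A498, with 4508 and 4624 CPM in H1703. The sum was thus 1.76, 1.65, 1.62 and 0.975 times the untreated one, and these sums weigh genes with high CPM most. The 16 mitochondrial genes summed to 360.9 and 364.5 CPM in IFN-gamma-treated and untreated 549, 365.9 and 533.5 CPM in A375 and 345 and 364.4 CPM in A498, with 380.4 and 395.1 CPM in H1703.

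Enzymes for the same amino acid in the 2 compartments form 15 pairs. The cytosolic ratio was above that of its mitochondrial partner in 12 pairs in 549, 13 in A375 and 13 in A498, with 7 in H1703. FARS2 was paired with FARSA, the catalytic subunit of the cytosolic phenylalanyl enzyme. With FARSB in its place, a choice made after seeing the data, the counts were 13 in 549 and 14 in A375 and stayed at 13 in A498 and at 7 in H1703. With FARSA, the cytosolic ratio was above in all 4 lines for the alanyl, cysteinyl, arginyl, tyrosyl and prolyl pairs (EPRS is the cytosolic partner of both EARS2 and PARS2), and with FARSB for the phenylalanyl pair as well, 6 pairs in all. For the alanyl pair AARS exceeded AARS2 by 1.57 in 549, 2.16 in A375 and 1.92 in A498, with 0.19 in H1703 on the log2 scale. For the seryl pair the differences were 1.57, 2.17, 1.74 and -0.16. Only the valyl pair ran the other way in all 4 lines, with VARS below VARS2 by 0.03 to 0.56. HARS and HARS2 lie head to head and their promoter windows share 184 bases; their log2 changes were 0.25 and 0.26, while in 549 their ratios were -0.34 and 0.47.

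Grouping cytosolic members by literature links to ATF4 gave a wider split than grouping by complex or enzyme class. The 11 ATF4-linked members had median ratios of 1.22 in 549, 1.20 in A375 and 1.01 in A498, with -0.16 in H1703, and the 8 others had -0.06, 0.09, 0.22 and 0.07. Their fitted medians were 0.87 and 0.20, with 11 of 11 and 5 of 8 above 0, and 1 of 11 and 0 of 8 were called. Of all genes, 48.7% had a change above 0 and 1.59% were called higher. The 8 enzymes of the multisynthetase complex had a fitted median of 0.30 and the 11 free enzymes one of 0.43. Class I and class II enzymes, which differ in the fold of their catalytic domain, had 0.34 and 0.38. EPRS, the glutamyl-prolyl enzyme, was counted in class I only, and these medians depend on that choice. These medians are descriptions, and the lists were not tested against each other.

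In the wider ATF4 response, H1703 again had the lowest median of the 4 lines. Of 25 response genes, 1 passed the test, CEBPB, a C/EBP transcription factor, with a log2 change of 1.41 ± 0.28 (edgeR adjusted p 0.0449), and the list's median change was 1.08, where 1.59% of all genes were called higher and 0.327% lower. At an unadjusted p under 0.05, 21 of the 25 were higher and 0 lower, against 10.8% and 10.2% of all genes. The list's median ratio was 1.54 in 549, 2.02 in A375 and 1.12 in A498, with -0.13 in H1703. ATF4 itself had 660.8, 1175, 686.1 and 352.5 CPM in IFN-gamma-treated 549, A375, A498 and H1703, against 298.4, 290.5, 291.4 and 384.8 CPM in the untreated libraries. ASNS, asparagine synthetase, had 298.3, 586, 362.8 and 162.3 CPM with IFN-gamma, against 55.8, 65.7, 80.5 and 197.1 CPM untreated. Both were higher in 549, A375 and A498 and lower in H1703, where the untreated levels were also the highest of the 4 untreated libraries. Neither passed the test: the log2 change was 1.08 ± 0.31 for ATF4 (edgeR adjusted p 0.112) and 1.93 ± 0.51 for ASNS (0.0926). ATF3, a stress transcription factor, and XPOT, the tRNA export receptor, had changes of 2.40 (adjusted p 0.0541) and 1.26 (0.0655) and were higher in 4 of 4 lines.

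**Figure D4:**
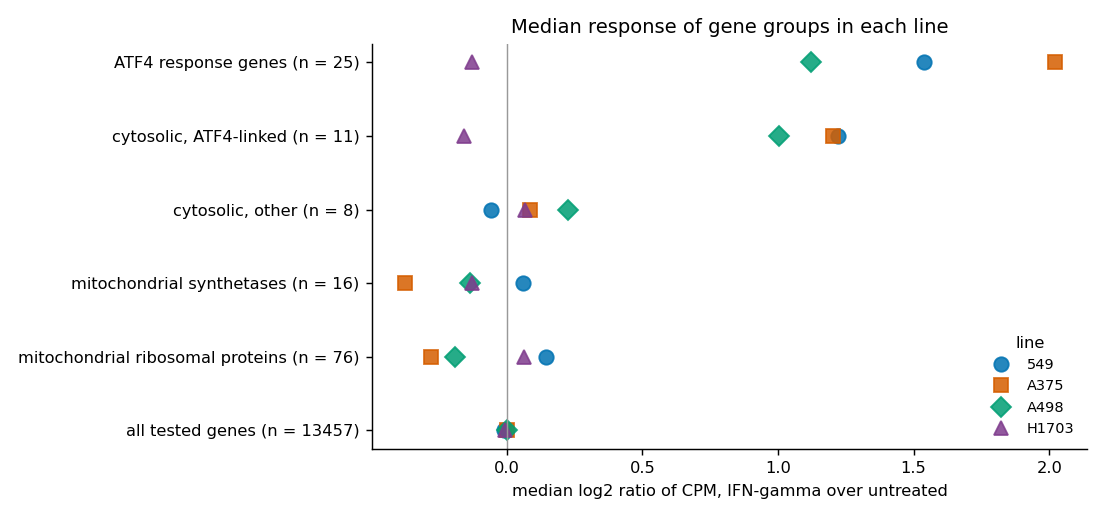
Median log2 ratio of CPM, IFN-gamma over untreated, of 6 gene groups (rows) in each of the 4 lines (symbols). In the ATF4 response genes and the ATF4-linked cytosolic synthetases, 549, A375 and A498 lie at 1.01 to 2.02 and H1703 at -0.13 and -0.16, while the other groups lie between -0.38 and 0.22.

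Of 8 tested genes around the eIF2 kinases, 1 was called, where 1.92% of all genes were called in either direction. It was EIF2AK2 (PKR, an interferon-induced kinase activated by double-stranded RNA), with a log2 change of 1.31 ± 0.22 (edgeR adjusted p 0.0229). Its log2 ratio in H1703 was 1.12, within the range of 0.85 to 2.06 of the other lines. At an unadjusted p under 0.05, 4 of the 8 were higher and 0 lower, against 10.8% of all genes higher and 10.2% lower. PPP1R15A and PPP1R15B had log2 changes of 1.68 and 0.72 (edgeR adjusted p 0.0808 and 0.106) and were not called. In H1703 their ratios were 0.31 and 0.10, against 1.16 to 3.08 and 0.76 to 1.17 in the other lines. EIF2AK4, the GCN2 gene, had 46.9, 75.7, 52.3 and 73 CPM in IFN-gamma-treated 549, A375, A498 and H1703, against 34.7, 85.1, 56.9 and 73.4 CPM untreated (adjusted p 0.934); it is outside the naming rule and was chosen after its values were seen.

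Lists of genes that scaffold, assist or follow the synthetases held 0 called genes, in lists of 8 to 76 where 1.92% of all genes were called in either direction. Of 10 scaffold and accessory genes 0 were called. The complex scaffolds AIMP1, AIMP2 and EEF1E1 had log2 changes of 0.17, -0.29 and 0.07 with edgeR adjusted p-values of 0.55, 0.374 and 0.854. Of 8 genes of cytosolic elongation, which include the eEF2 kinase gene EEF2K, 0 were called, with a median of -0.16. EEF2, the translocation factor, had -0.49 (edgeR adjusted p 0.153). Of 18 mitochondrial translation genes, which include tRNA-modifying enzymes such as TRMU and MTO1, and of 76 mitochondrial ribosomal proteins, 0 were called. Their medians were -0.08 and -0.09. In A375, where mitochondrial synthetases had a median ratio of -0.38, those medians were -0.37 and -0.28. At an unadjusted edgeR p under 0.05, 0 of 10 scaffold and accessory genes and 0 of 18 mitochondrial translation genes differed. Of the 8 elongation genes 0 were higher and 3 lower, EEF2K among them. Of 76 mitochondrial ribosomal genes 4 were higher and 6 lower. By the same measure, 10.8% of all genes were higher and 10.2% lower.

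Whether H1703 responded differently was tested as an interaction of treatment with line. H1703 gave 1 library per arm, so the residual spread in this fit comes from the other 3 lines, and H1703 is assumed to vary as they do. The same holds for each other line tested alone. For H1703 against the other 3 lines, edgeR called 0 of 35 members and 0 of all 13457 genes, with an adjusted p of 1 for every member. DESeq2 and limma-voom called 0 members too. At an unadjusted p under 0.05, 7 cytosolic members and 1 mitochondrial member (CARS2) were lower in H1703 and 0 were higher, against 1.68% of all genes lower and 1.43% higher. The 7 were GARS (-1.80 ± 0.44, SE), SARS (-1.55 ± 0.41), AARS (-1.43 ± 0.38), YARS (-1.31 ± 0.42), MARS (-1.24 ± 0.38), CARS (-1.20 ± 0.39) and EPRS (-0.97 ± 0.40), all in the ATF4-linked list. The median difference was -0.56 for cytosolic members, -0.05 for mitochondrial members and 0.00 for all genes. In the fits of 549, A375, A498 and of both lung lines against the rest, edgeR called 0 members. At an unadjusted p under 0.05, IARS2, the isoleucyl enzyme, was lower in A375, where 4.07% of all genes were lower and 4.5% higher. By the same measure 0 members differed in 549 (2.41% of all genes lower, 1.2% higher), in A498 (1.51% lower, 2.84% higher) and in the lung lines (2.96% lower, 1.52% higher).

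**Figure D5:**
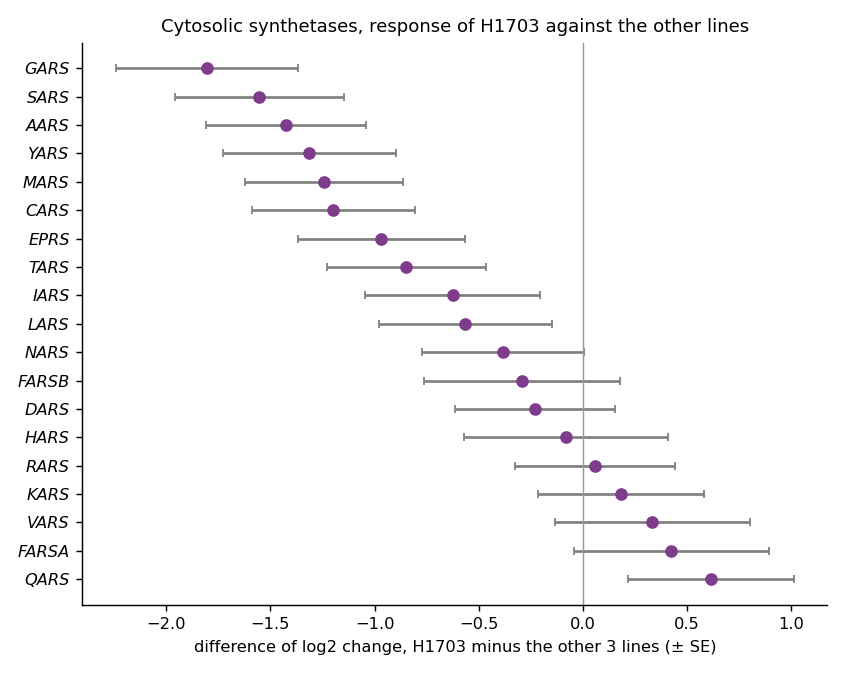
Difference of the log2 change with IFN-gamma, H1703 minus the other 3 lines, ± SE from the interaction fit, for 19 cytosolic synthetases. GARS is lowest at -1.80 and QARS highest at 0.61, and no member passed the adjusted test.

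WARS, the tryptophanyl enzyme that is not among the 35, was higher in all 4 lines, with log2 ratios of 4.50 to 5.11 in 549, A375 and A498 and of 2.61 in H1703 (edgeR log2 change 4.33 ± 0.43, adjusted p 0.00128). Its mitochondrial counterpart WARS2 had a fitted log2 change of -0.21 (adjusted p 0.627). IRF1 had a ratio of 4.15 in H1703, against 4.23 to 5.57 in the other lines, and GBP1 one of 5.05, against 5.67 to 7.28. All 3 genes that were higher here thus had their lowest ratio in H1703.

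Levels also differed between lines apart from treatment. The line term was called for 15 of 35 members (42.9%), 6 cytosolic and 9 mitochondrial, against 56.3% of all genes. TARS was highest in H1703, with 1160 and 1338 CPM in the IFN-gamma and untreated libraries, against at most 831.4 CPM in each of the other 6 libraries (edgeR adjusted p of the line term 0.00563). VARS was likewise highest in H1703, with 90.5 and 99.6 CPM against 25 to 78.5 CPM elsewhere (0.00311). Between untreated libraries, the highest level was 1.11 times the lowest for KARS and 3.57 times for TARS, the ends of the range over the 35 members. For GARS and MARS the untreated H1703 level was the highest of the 4 untreated libraries, and for AARS and CARS it was the lowest.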

How the data were processed

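RNA was sequenced from 4 cancer lines with IFN-gamma and untreated, 8 libraries in all, 1 per line and arm. Per the labels' protocols RNA was extracted with TRIzol, and both a poly(A) stranded kit and a 3' mRNA kit are named. Where different genes are set side by side, as in marker sums, the values therefore describe counts or CPM and not transcript abundance. Bowtie2, edgeR and the build hg19 stand in the submitters' processing notes; no version, annotation, counting tool or strand setting is given in the sources used here. The authors deposited raw counts and log2 normalized values per gene, per the file headers. The whole-number counts were used, and the log2 values only in 1 alternative. Rows of 1 symbol were summed (286 symbols, among them VARS with 7 rows and VARS2 with 6, all but 1 of them at 0). Unused per-sample columns: 0.

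Members and lists were chosen with earlier results of these data known. Genes were filtered by filterByExpr (minimum count 10, minimum total 15), which left 13457, and scaled by TMM. The treatment effect was tested with cell line as a term by edgeR 4.0.16 in R 4.3.3, with Benjamini-Hochberg adjustment over all genes at 0.05. The quasi-likelihood fit has 3 residual degrees of freedom per gene, before the spread is moderated across genes. Pairing comes from the line labels. Deviations from the arm means correlated at 0.847 to 0.903 within lines, and -0.095 was the highest value for different lines across arms. Subtracting the arm means lowers the values between different lines by construction, so their sign is no check of the pairing. A line's own response is its log2 ratio of CPM (prior count 2), with exact 95% binomial intervals for counting error. With 4 pairs, exact sign permutation could reach a two-sided p of 0.125 at best. Alternatives used DESeq2 1.42.0 and limma 3.58.1. The treatment fit was tested on simulated data.

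Values in every library are given for called members and for up to 8 cytosolic and 4 mitochondrial members with the smallest p; of other lists up to 3 genes are named, with ATF4, ASNS, AIMP1, AIMP2 and EEF1E1. Overlapping genes were taken by name from a GRCh38 RefSeq table. Promoter windows were available for 29 of 35 members. Some of the promoter sequences that the naming rule covers are not reported here.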

Additional observations from a re-analysis of the deposited data

Results flagged for a closer look

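Of 46 sets of 4 values screened for a value far from the rest, 7 were picked out, where chance picks about 1 in 20. The sets come from the same libraries, and the ATF4-linked median includes AARS, MARS and TARS. The sets are therefore not independent, and the 7 cannot be judged against that rate. In H1703 the log2 ratios of AARS (-0.13, against 1.20 to 1.43 in the other lines), MARS (0.051, against 1.22 to 1.43) and TARS (-0.21, against 0.61 to 0.70) stood apart, as did the median ratio of the ATF4-linked cytosolic members (-0.16, against 1.01 to 1.22). In 549 the ratios of FARSB (0.89, against 0.03 to 0.13) and EARS2 (0.62, against -0.12 to -0.07) stood apart. Among untreated libraries, A375 had the largest total, 9.291e+06 counts, against 6.751e+06 to 7.101e+06.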

How the results depend on the processing

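The count of all genes called was 258, and it was 884 with no filter on low counts, 1036 with DESeq2, 1319 with edgeR's likelihood ratio test, 0 without the cell line term (no replicate block) and 106 to 455 when each line was left out. The synthetases called were 1, and 5 with no filter, 6 with DESeq2, 6 with the likelihood ratio test, 0 without the block and 0 to 6 with a line left out. The 6 came without H1703, and without 549, A375 or A498 the count was 0. Of 180 values of the 12 named members under alternatives, 157 kept direction and side of the threshold, 4 lost the call (CARS), 19 gained it and 0 turned sign. The cause of these changes was not tested, and the fits that leave out a line also have fewer samples. All 56 medians of single lines moved by less than the spread between lines. Scaling moved the median of all genes by at most 0.07, down, on the log2 scale. Under every scaling CARS, MARS, NARS, RARS and MARS2 were higher in all 4 lines, and QARS, AARS2, FARS2, RARS2 and SARS2 lower. Under TMM, 14.9% of all genes were higher in all 4 lines and 15.2% lower, so such agreement was common. With 1 library per line and arm, culture effects cannot be told apart from the response of a line. For the mitochondrial members with the fewest counts, depth limits the ratio of a line.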
